A study of Mus musculus with 12 samples.

Results

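The genes described here are 33 hypoxia-induced genes and regulators of the hypoxia-inducible factors (HIFs), chosen by name as a module and asked member by member whether anti-VEGF treatment raised them in either liver. A member was read from the array row that the platform annotation gives a single gene symbol, and, where it had several such rows, from the brightest of them on average. Of the 33 members, 31 had such a row among the 22180 genes of the array, and 29 were measured, meaning that 3 or more arrays read above 4.93, the table's median on the log2 scale. Bnip3l and Ankrd37 share their rows with another gene and have no value here. Vldlr, a lipoprotein receptor gene induced by hypoxia, and Hif3a, the third HIF alpha subunit, lay below that median on all 12 arrays, at 4.0 to 4.70 and 4.25 to 4.78, so no change of theirs was tested.

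The arrays held total RNA from mouse colorectal cancer that had been injected into and grown in the liver. The 4 groups of 3 arrays, 1 for each mouse by the design text, were tumours of healthy liver from mice given vehicle, tumours of healthy liver under anti-VEGF (AAD in another label), and the same vehicle and anti-VEGF treatments in fatty liver. The sources used here name neither the tumour cell line, the mouse strain and age, the anti-VEGF agent and its dose, nor how the liver was made fatty. The values are the authors' log2 expression values, and "rose" or "fell" is used where limma's adjusted p, by Benjamini-Hochberg over all 13286 genes tested, was under 0.05.

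As background, HIF is a pair of an oxygen-labile alpha subunit, encoded by Hif1a or Epas1, and the stable partner encoded by Arnt. In oxygen the prolyl hydroxylases encoded by Egln1, Egln2 and Egln3 mark the alpha subunit for the ubiquitin ligase that contains the Vhl protein, and without oxygen it accumulates, binds DNA at a short core motif and induces genes of acid handling, glycolysis, mitochondrial turnover, collagen maturation and vessel growth. HIF alpha is controlled mainly as a protein, so its mRNA level and the mRNA of its targets are separate readouts; blocking VEGF prunes tumour vessels and can lower tumour oxygen, and Car9 and Egln3 are widely used transcript markers of that state.

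The core motif is ACGTG or GCGTG. The promoters printed here are those of Hif1a, of Egln3 and Egln2, 2 hydroxylase genes that differed between the livers in opposite directions, of Ddit4, which moved with Egln2, and of Car9, the classical hypoxia marker. Each is RefSeq sequence of GRCm38.p6, from 250 bases before the annotated start to 20 after it, with either motif on either strand in capitals.
Hif1a: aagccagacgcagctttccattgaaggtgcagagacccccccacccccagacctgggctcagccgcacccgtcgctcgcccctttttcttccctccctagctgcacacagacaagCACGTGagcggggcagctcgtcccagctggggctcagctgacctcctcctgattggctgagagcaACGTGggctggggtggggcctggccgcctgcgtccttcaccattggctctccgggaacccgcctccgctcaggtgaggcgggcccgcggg
Egln3: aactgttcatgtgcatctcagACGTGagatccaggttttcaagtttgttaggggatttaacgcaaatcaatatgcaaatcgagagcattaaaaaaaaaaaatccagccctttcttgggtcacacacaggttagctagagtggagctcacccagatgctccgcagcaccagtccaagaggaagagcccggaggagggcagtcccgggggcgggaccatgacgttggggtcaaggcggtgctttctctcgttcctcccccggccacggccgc
Egln2: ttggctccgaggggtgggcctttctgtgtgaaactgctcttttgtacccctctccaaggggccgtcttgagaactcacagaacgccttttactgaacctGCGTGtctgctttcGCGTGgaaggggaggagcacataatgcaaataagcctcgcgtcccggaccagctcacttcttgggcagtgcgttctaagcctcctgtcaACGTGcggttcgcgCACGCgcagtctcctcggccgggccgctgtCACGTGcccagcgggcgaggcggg
Ddit4: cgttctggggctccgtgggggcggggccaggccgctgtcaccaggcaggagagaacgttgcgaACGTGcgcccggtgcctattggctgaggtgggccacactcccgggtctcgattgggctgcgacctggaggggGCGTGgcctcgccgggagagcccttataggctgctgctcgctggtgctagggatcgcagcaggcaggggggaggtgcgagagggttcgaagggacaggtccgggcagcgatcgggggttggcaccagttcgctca
Car9: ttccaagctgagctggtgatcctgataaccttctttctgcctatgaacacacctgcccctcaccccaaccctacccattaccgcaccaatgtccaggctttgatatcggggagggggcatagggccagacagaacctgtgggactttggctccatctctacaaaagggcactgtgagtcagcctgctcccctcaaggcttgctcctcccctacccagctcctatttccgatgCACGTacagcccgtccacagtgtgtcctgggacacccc
The stretches lie at chr12:73907617-73907886 on the plus strand (Hif1a), chr12:54203855-54204124 on the minus strand (Egln3), chr7:27166783-27167052 on the minus strand (Egln2), chr10:59951751-59952020 on the minus strand (Ddit4) and chr4:43506776-43507045 on the plus strand (Car9). They hold 3 motif matches in Hif1a, 1 in Egln3, 6 in Egln2, 2 in Ddit4 and 1 in Car9. The Egln2 stretch is the first of 2 promoters listed for that gene. Counted from the annotated start, the first base of the match lies at -18 in Car9 and at -229 in Egln3. Of the 33 members, 25 had a promoter of 300 bases (250 before the start and 50 after it) in the RefSeq table, and 22 of these (88.0%) held ACGTG or GCGTG on either strand in at least 1 of their promoters, against 46.7% of 27025 genes. Counted by promoter, 28 of the members' 37 held a motif (75.7%), against 43.8% of 32851. Promoters of the same gene can overlap and share a motif, as some of Ak4 and of Ndrg2 do, so these are not separate counts. A CACGTG counts on both strands. These matches describe the sequence alone. The members were chosen by name as hypoxia genes and were not matched to the other genes, so the shares are no test of enrichment.

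The arrays of a group were not equally far apart, and every result has to be read with that. The medians of the 12 arrays were 4.88 to 4.99. Healthy liver vehicle arrays 1 and 3, the 3 healthy liver anti-VEGF arrays, and fatty liver vehicle arrays 1 and 3 were near-identical: the standard deviation of their log2 differences over genes was 0.148 to 0.163, while the other pairs within a group had 0.391 to 0.636. Xist, expressed from the inactive X chromosome of female cells, was high on vehicle arrays 1 and 3 of both livers (8.10 and 8.43, then 10.58 and 10.45) and at most 4.32 on the other 8, so treatment and Xist partly go together. Whether near-identical arrays are separate mice was not tested, and adjusted p-values measure only the spread between these arrays; the liver calls are given with them averaged too. Of 13 epithelial markers 6 were measured, Krt8 and Krt18 among them, and Epcam and Krt20 lay below the limit, as did Alb, the defining gene of hepatocytes. The mean of 15 measured endothelial genes (of 17; Tek and Cldn5 passed the limit on too few arrays, highest on healthy liver vehicle 2 at 6.31 and 6.09) was 9.04 on healthy liver vehicle 2, 7.72 on fatty liver vehicle 2, 7.23 on fatty liver anti-VEGF 1, and 5.70 to 6.17 elsewhere. The mean of 13 macrophage genes (of 15; Cd163 below the limit) lay at 9.03 to 10.13 on the healthy liver arrays and at 11.03 to 11.36 on the fatty liver ones. In bulk tissue, fewer cells of a type and less RNA per cell cannot be told apart.

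Anti-VEGF raised no member past the test in either liver. In healthy liver 0 of the 29 measured members rose and 0 fell, beside 0% of all 13286 genes by limma, and in fatty liver 0 rose and 0 fell, beside 0.00753% (1 gene, lower). At an unadjusted p under 0.05, 2 members were higher and 1 lower in healthy liver (Ndrg2 and Mxi1 higher, Ddit4 lower), where 8.41% of all genes reached that value, and in fatty liver 0 were higher and 1 lower (Stc2), against 5.86%. The members' median log2 difference was 0.05 in healthy liver and 0.01 in fatty liver, beside 0.01 over all genes in both, and 19 of 29 members in healthy liver and 15 of 29 in fatty liver had a positive difference. A test of whether the treatment difference depended on the liver called 0 members, beside 0% of all genes; at an unadjusted p under 0.05 it had 0 higher and 3 lower (Ndrg1, Ndrg2 and Stc2), against 5.1%. The count in healthy liver became 1 higher (Ndrg2) without fatty liver anti-VEGF 1 or 3, which enter through the shared spread; 41 and 31 of all 13286 genes passed in those fits. Without the 4 vehicle arrays high in Xist, it was 1 higher (Ndrg2) and 5 lower (Angptl4, Car12, Epas1, Lox and Stc1), among 754 genes, with healthy liver vehicle 2 alone as the vehicle group.

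The intervals set how large a rise these arrays could have hidden. The 95% interval of the difference stayed under a log2 value of 1, a doubling, for 25 of 29 members in healthy liver and for 24 of 29 in fatty liver. The members whose interval reached it were Ndrg2, Adm, P4ha2 and Stc1 in healthy liver, and Angptl4, P4ha2, Lox, Stc1 and Epas1 in fatty liver. The median standard error of a member's treatment difference was 0.18 on the log2 scale. Rises well above that error could still go uncalled, as Ndrg2's difference of 0.92 ± 0.14 in healthy liver did. With near-identical arrays averaged, which leaves 8 arrays and a single healthy liver anti-VEGF one assumed to vary like the others, the interval stayed under 1 for 17 of 29 members in healthy and 21 of 29 in fatty liver, and the median standard errors were 0.32 and 0.24.

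**Figure D1:**
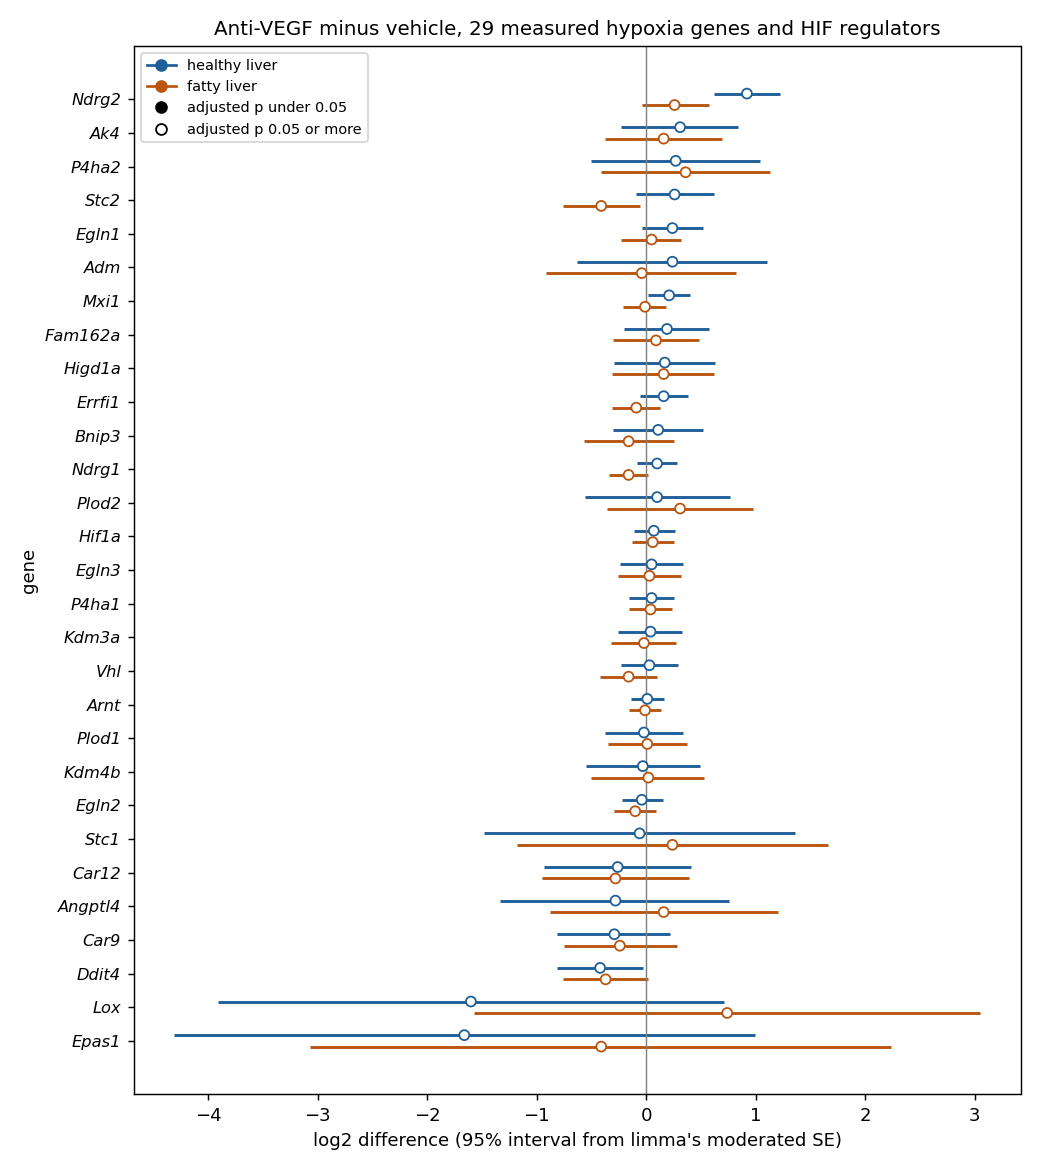
Log2 difference of anti-VEGF against vehicle for each of the 29 measured members, in healthy and in fatty liver, with 95% intervals from the limma fit over 12 arrays. No point passed the adjusted threshold of 0.05; Ndrg2 in healthy liver lies farthest right, and Lox and Epas1 have the widest intervals.

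Ndrg2, a hypoxia-responsive member of the Ndrg family of stress and differentiation genes, came closest to the threshold. On the 3 healthy liver vehicle arrays its level was 9.04, 8.94 and 9.08, and under anti-VEGF it was 9.91, 9.92 and 9.99. All 3 treated arrays lay above all 3 vehicle arrays, a log2 difference of 0.92 ± 0.14 (SE, n = 3 per group) or 1.9-fold, with a limma adjusted p of 0.0754. In fatty liver the vehicle arrays read 8.39, 7.95 and 8.32 and the anti-VEGF arrays 8.22, 8.59 and 8.64, a difference of 0.26 ± 0.14 with overlapping groups (adjusted p = 0.795). The 2 treatment differences differed by -0.66 ± 0.19, which did not pass the test (adjusted p = 0.852). In healthy liver Ndrg2 passed in several alternative fits, among them the fit of the 2 groups alone (adjusted p = 0.0167), and with near-identical arrays averaged the difference was 0.94 ± 0.26, of the same size with less precision (adjusted p = 1).

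By rank alone, in healthy liver the 3 anti-VEGF arrays lay above the 3 vehicle arrays for 9 of 29 members (31.0%), beside 13.1% of all genes, and below them for 2 (Car9 and Ddit4), beside 11.7%. The 9 were Adm, Ak4, Egln1, Errfi1, Fam162a, Hif1a, Mxi1, Ndrg2 and P4ha2, with log2 differences of 0.07 to 0.92 that did not pass the test. A dimmer second row of Mxi1 overlapped there, at 7.19, 6.38 and 6.88 under vehicle against 7.26, 6.98 and 7.19. Those of Hif1a and Car9 overlapped too, while that of Ndrg1 lay wholly above vehicle. In fatty liver 0 members lay wholly above and 2 wholly below (Ndrg1 and Stc2), beside 3.07% and 4.99% of all genes. The 3 healthy liver anti-VEGF arrays are near-identical, and whether the livers differ in these counts was not tested.

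Among the HIF subunits, Hif1a was called between the livers and not between the treatments. It read 11.19, 11.15 and 11.08 under vehicle, then 11.23, 11.20 and 11.21 under anti-VEGF in healthy liver, and 10.78, 10.98 and 10.80 against 11.03, 10.80 and 10.90 in fatty liver. The treatment differences were 0.07 ± 0.08 and 0.06 ± 0.08 (adjusted p = 0.895 and 0.89), with the treated arrays just above the vehicle arrays in healthy liver and overlapping them in fatty liver. The 6 fatty liver arrays all lay below the 6 healthy liver arrays: Hif1a fell in fatty liver by 0.29 on the log2 scale under vehicle (adjusted p = 0.0169) and by 0.30 under anti-VEGF (adjusted p = 0.0156). A second, much dimmer Hif1a row did not follow: it read 5.39, 5.42 and 5.50 in healthy and 5.67, 5.99 and 5.65 in fatty liver under vehicle, and the mean of the rows gave a difference of 0.02 there. Under anti-VEGF the dimmer row read 5.27, 5.61 and 5.39 in healthy and 5.71, 5.63 and 5.47 in fatty liver. With the mean of the rows, both liver calls of Hif1a were lost.

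Epas1, the HIF-2 alpha gene and well known from endothelium, was high on 3 arrays of 12. It read 4.88, 9.39 and 4.50 on the healthy liver vehicle arrays and 4.66, 4.24 and 4.91 under anti-VEGF. In fatty liver it read 5.09, 7.79 and 5.20 under vehicle, then 6.91, 4.81 and 5.12 under anti-VEGF. The high arrays, healthy liver vehicle 2, fatty liver vehicle 2 and fatty liver anti-VEGF 1, are also the 3 with the highest endothelial level, 9.04, 7.72 and 7.23. The differences of -1.66 ± 1.20 in healthy and -0.41 ± 1.20 in fatty liver did not pass the test (adjusted p = 0.781 and 0.954), and only 6 of the 12 arrays lay above the limit. Arnt, the shared partner, ranged from 10.27 to 10.44 over the 12 arrays, with treatment differences of 0.01 ± 0.07 and -0.01 ± 0.07.

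Vhl, the substrate receptor of the ligase that removes HIF alpha, overlapped between all groups. It read 7.30, 7.05 and 7.35 under vehicle, then 7.19, 7.28 and 7.31 under anti-VEGF in healthy liver, and 7.16, 7.46 and 7.30 against 7.24, 7.25 and 6.96 in fatty liver. Its largest difference among the 4 group comparisons was -0.16 ± 0.12 (anti-VEGF in fatty liver, adjusted p = 0.804).

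The 3 prolyl hydroxylase genes were each called between livers under at least 1 treatment, and none was called between treatments. Egln3, itself a strong HIF target, read 11.74, 11.68 and 11.80 under vehicle, then 11.83, 11.75 and 11.81 under anti-VEGF in healthy liver. In fatty liver it read 11.24, 11.08 and 11.30 under vehicle, then 11.04, 11.10 and 11.58 under anti-VEGF, with no fatty liver array reaching the lowest healthy liver array. It fell by 0.54 ± 0.13 under vehicle (adjusted p = 0.00745) and by 0.56 ± 0.13 under anti-VEGF (adjusted p = 0.00701), while the treatment differences were 0.05 ± 0.13 and 0.03 ± 0.13 (adjusted p = 0.966 and 0.967).

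Egln1, the main oxygen-sensing hydroxylase, read 9.61, 9.37 and 9.50 under vehicle, then 9.70, 9.76 and 9.75 under anti-VEGF in healthy liver. In fatty liver it read 9.19, 9.26 and 9.21 under vehicle, then 8.99, 9.26 and 9.55 under anti-VEGF. The groups of the 2 livers did not overlap under either treatment, and Egln1 fell in fatty liver under anti-VEGF, by 0.46 ± 0.13 (adjusted p = 0.0134); under vehicle the difference was -0.27 ± 0.13 (adjusted p = 0.0916). Its treatment difference in healthy liver was 0.24 ± 0.13 (adjusted p = 0.663).

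Egln2, the hydroxylase gene that is not known as a strong hypoxia target, ran the other way. It read 7.57, 7.46 and 7.63 under vehicle, then 7.55, 7.49 and 7.51 under anti-VEGF in healthy liver, against 8.01, 8.0 and 7.78 and then 7.76, 7.82 and 7.90 in fatty liver. Each fatty liver array lay above each healthy liver array, and Egln2 rose in fatty liver by 0.38 ± 0.09 under vehicle (1.3-fold, adjusted p = 0.00538) and by 0.31 ± 0.09 under anti-VEGF (adjusted p = 0.015). The treatment differences were -0.04 ± 0.09 and -0.10 ± 0.09.

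**Figure D2:**
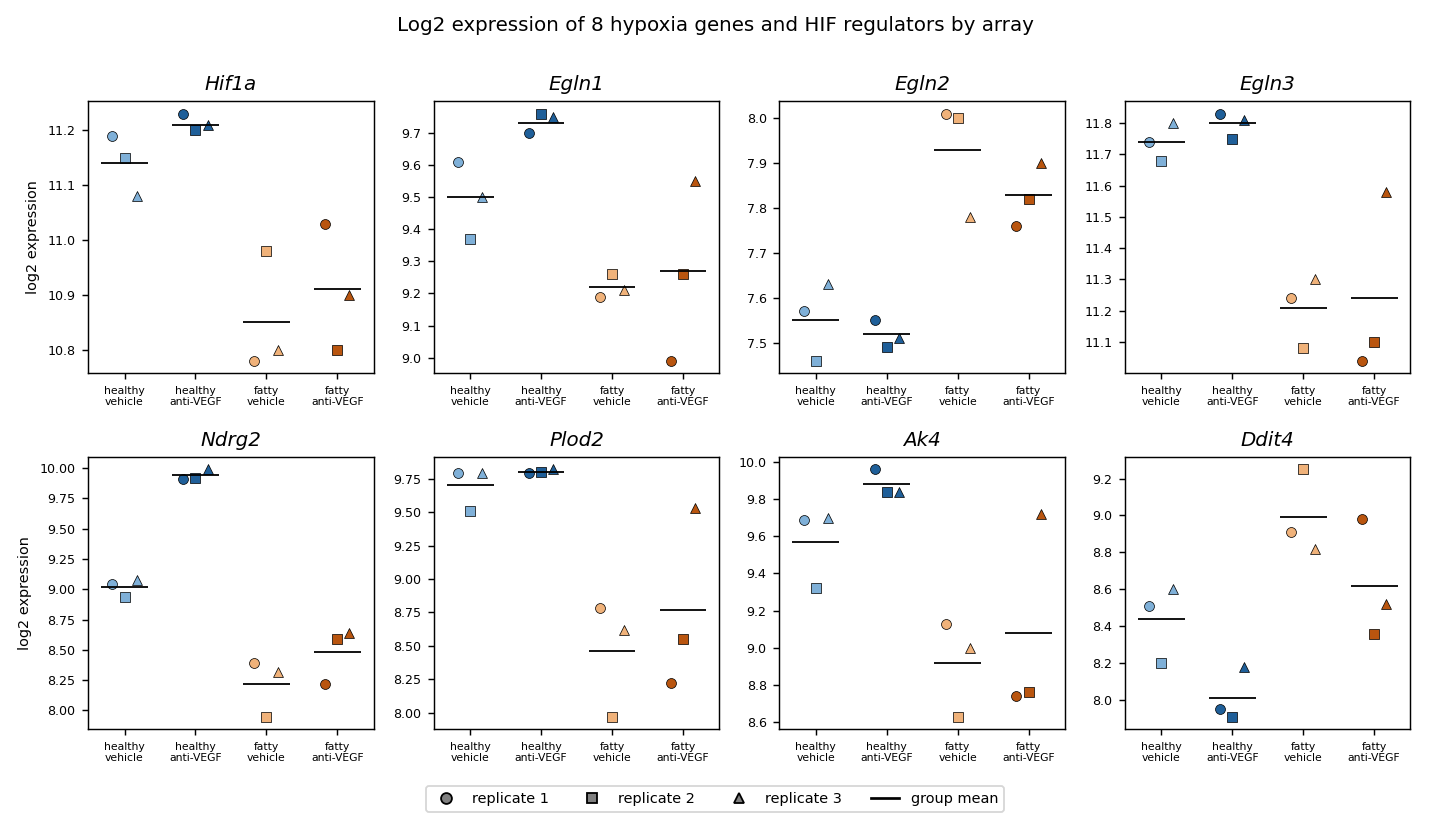
Log2 expression of 8 members on each of the 12 arrays, by group, with the mean of each group as a line. Egln3, Hif1a, Plod2 and Ndrg2 lie lower in fatty liver and Egln2 and Ddit4 higher, and Ndrg2 in healthy liver shows the widest gap between vehicle and anti-VEGF arrays.

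Car9, the carbonic anhydrase that exports acid from hypoxic cells, did not pass the test under anti-VEGF, and on its brighter row the treated means were the lower ones. In healthy liver it read 6.42, 6.43 and 6.50 under vehicle, then 6.06, 6.25 and 6.16 under anti-VEGF, with all treated arrays lower (-0.29 ± 0.23, adjusted p = 0.808). In fatty liver it read 6.81, 6.15 and 6.53 under vehicle, then 5.68, 6.42 and 6.68 under anti-VEGF, with overlapping groups (-0.24 ± 0.23, adjusted p = 0.832). The upper ends of the 95% intervals were 0.22 and 0.28 on the log2 scale. Its relative Car12 lay above the limit on 4 of 12 arrays, at 4.47 to 5.75, with differences of -0.26 and -0.28 that did not pass. A second, dimmer Car9 row went the other way in fatty liver, at 5.59, 5.73 and 5.59 under vehicle against 5.79, 5.86 and 6.03, and overlapped in healthy liver, at 5.70, 5.64 and 5.88 against 5.90, 5.79 and 5.72. With the mean of both rows the Car9 differences were -0.12 ± 0.14 and 0.01 ± 0.14, so its direction depends on the row.

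The mitochondrial and growth-restraint targets gave no treatment call either. Ddit4, an inhibitor of mTOR signalling induced by hypoxia and other stresses, read 8.51, 8.20 and 8.60 under vehicle, then 7.95, 7.91 and 8.18 under anti-VEGF in healthy liver, with every treated array lower (-0.42 ± 0.18, adjusted p = 0.558). In fatty liver it read 8.91, 9.25 and 8.82 under vehicle, then 8.98, 8.36 and 8.52 under anti-VEGF (-0.37 ± 0.18, adjusted p = 0.795), with 1 treated array inside the vehicle range. Between livers Ddit4 rose, by 0.56 ± 0.18 (1.47-fold, adjusted p = 0.0248) under vehicle and by 0.61 ± 0.18 (1.52-fold, adjusted p = 0.0192) under anti-VEGF, with no overlap of the groups under either treatment.

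Bnip3, which marks mitochondria for removal, was not called in any comparison. It read 8.26, 7.69 and 8.18 under vehicle, then 8.15, 8.18 and 8.12 under anti-VEGF in healthy liver, and 8.27, 8.37 and 8.27 against 7.71, 8.39 and 8.34 in fatty liver. The groups overlapped under treatment (0.11 ± 0.19 and -0.16 ± 0.19), and healthy liver vehicle 2 and fatty liver anti-VEGF 1 were the low arrays. A fit chosen after seeing the data left out those arrays and fatty liver vehicle 2. In it Bnip3 was 0.22 higher in fatty than in healthy liver under anti-VEGF and passed the test, as did 6352 of 13286 genes. That fit drops the low fatty liver anti-VEGF array of Bnip3, so its pass is no separate evidence of a difference. Higd1a and Fam162a, small mitochondrial proteins, lay at 6.27 to 7.07 and 8.69 to 9.68 with treatment differences of 0.09 to 0.19 that did not pass.

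Ak4, a mitochondrial adenylate kinase, fell in fatty liver. It read 9.69, 9.32 and 9.70 under vehicle, then 9.96, 9.84 and 9.84 under anti-VEGF in healthy liver, and 9.13, 8.63 and 9.0 against 8.74, 8.76 and 9.72 in fatty liver. The last of these, fatty liver anti-VEGF 3, lay above the healthy liver vehicle arrays and below the healthy liver anti-VEGF arrays. The difference between livers was -0.65 ± 0.24 under vehicle (adjusted p = 0.0455) and -0.80 ± 0.24 under anti-VEGF (adjusted p = 0.0214), and the treatment differences were 0.31 ± 0.24 and 0.16 ± 0.24.

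Mxi1, an antagonist of Myc, and Ndrg1, a growth-restraint gene strongly induced by hypoxia, differed by small amounts. Mxi1 read 9.99, 9.83 and 9.92 under vehicle, then 10.10, 10.10 and 10.17 under anti-VEGF in healthy liver, and 9.90, 9.99 and 9.80 against 9.75, 10.00 and 9.89 in fatty liver. Ndrg1 read 11.52, 11.74 and 11.52, then 11.69, 11.68 and 11.71 in healthy liver, and 11.55, 11.68 and 11.56, then 11.38, 11.50 and 11.45 in fatty liver. Under anti-VEGF both genes' fatty liver arrays lay below those of healthy liver, and Mxi1 fell by 0.24 ± 0.09 (adjusted p = 0.042) and Ndrg1 by 0.25 ± 0.08 (adjusted p = 0.0296). Under vehicle the livers differed by -0.02 and 0.01, and the interactions did not pass (adjusted p = 0.979 and 0.966). A second, dimmer Ndrg1 row read 7.10, 7.24 and 6.99 under vehicle against 7.48, 7.65 and 7.48 in healthy liver, all treated arrays higher, and overlapped in fatty liver, at 7.21, 7.49 and 7.38 against 7.0, 7.60 and 7.50. With the mean of rows the Ndrg1 treatment difference in healthy liver was 0.26 ± 0.11 (adjusted p = 0.548), and the liver calls of Ndrg1 (-0.21 ± 0.11, adjusted p = 0.133) and Mxi1 (-0.25 ± 0.14, adjusted p = 0.172) were lost.

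Stc2, a secreted glycoprotein gene of the stress response, lay near the limit of the array, above it on 9 of 12 arrays. It read 4.76, 5.29 and 4.68 under vehicle, then 5.22, 5.17 and 5.13 under anti-VEGF in healthy liver, and 5.30, 5.66 and 5.49 against 5.16, 4.88 and 5.19 in fatty liver. In fatty liver all treated arrays were lower (-0.41 ± 0.16, adjusted p = 0.795), and in healthy liver the groups overlapped (0.26 ± 0.16, adjusted p = 0.714). Stc2 rose in fatty liver under vehicle by 0.58 ± 0.16 (1.49-fold, adjusted p = 0.0131) and differed by less under anti-VEGF (-0.10 ± 0.16, adjusted p = 0.648); the interaction of -0.67 ± 0.23 did not pass (adjusted p = 0.964). Errfi1, a feedback inhibitor of EGF receptor signalling, read 10.00, 10.09 and 10.11 under vehicle, then 10.25, 10.26 and 10.17 under anti-VEGF in healthy liver, and 9.97, 10.19 and 10.00 against 9.98, 10.13 and 9.79 in fatty liver. Its treated arrays were all higher in healthy liver and overlapped vehicle in fatty liver, and neither difference passed (adjusted p = 0.723 and 0.846).

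Among the collagen-processing and secreted targets, Plod2, a lysyl hydroxylase that prepares collagen for cross-linking, differed most between livers under vehicle of the members called. In healthy liver it read 9.79, 9.51 and 9.79 under vehicle, then 9.79, 9.80 and 9.82 under anti-VEGF. In fatty liver it read 8.78, 7.97 and 8.62 under vehicle, then 8.22, 8.55 and 9.53 under anti-VEGF. The vehicle groups did not overlap, nor did the anti-VEGF groups, and Plod2 fell by 1.24 ± 0.30 (to 0.424 of the healthy liver level, adjusted p = 0.00737) and by 1.03 ± 0.30 (to 0.489, adjusted p = 0.0185). Its treatment differences were 0.10 ± 0.30 and 0.31 ± 0.30 (adjusted p = 0.974 and 0.831).

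Lox, which cross-links collagen, was highest on the same 3 arrays as Epas1. It read 5.27, 9.23 and 4.86 under vehicle, then 4.82, 4.82 and 4.91 under anti-VEGF in healthy liver, and 5.29, 7.60 and 4.98 against 7.54, 6.42 and 6.12 in fatty liver. Under anti-VEGF all 3 fatty liver arrays were above the healthy liver arrays (1.84 ± 1.04, adjusted p = 0.169). The treatment differences were -1.60 ± 1.04 in healthy and 0.74 ± 1.04 in fatty liver (adjusted p = 0.748 and 0.891), and 8 of 12 arrays lay above the limit. Leaving out the 3 arrays with the highest endothelial level, Lox was 1.13 ± 0.17 higher under anti-VEGF in fatty liver and passed the test (adjusted p = 0.0448). In that fit 83 of 13286 genes passed, against 1 in the main fit. The fit was chosen after seeing the data and drops the arrays highest in Lox, among them its high fatty liver vehicle array. Its pass is therefore no separate evidence of a rise.

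Several members were high or low on single arrays, and these were picked out after their values were seen. On healthy liver vehicle 2, Car12, Angptl4, Lox, Stc1 and Epas1 exceeded the mean of the other arrays of the group by more than 1 on the log2 scale, 5 of 29 members, beside 6.8% of all genes. On fatty liver vehicle 2 it was Angptl4, Lox, Stc1 and Epas1, 4 of 29, beside 1.65%. Stc1, a secreted calcium and phosphate regulator, read 7.40, 9.90 and 7.38 in healthy and 6.44, 8.08 and 6.40 in fatty liver under vehicle, and Angptl4, a lipase inhibitor, 6.41, 8.53 and 6.66, then 6.43, 7.43 and 6.42. Under anti-VEGF Stc1 read 8.12, 8.26 and 8.13 in healthy and 7.17, 6.85 and 7.63 in fatty liver. Angptl4 read 6.94, 6.93 and 6.88, then 6.88, 7.08 and 6.80. For both genes and livers, each treated array lay above vehicle arrays 1 and 3 and below vehicle array 2. The treatment differences were -0.06 ± 0.64 and 0.24 ± 0.64 for Stc1 and -0.28 ± 0.47 and 0.16 ± 0.47 for Angptl4. None passed the test. In both vehicle groups array 2 was high for both genes, and it carries the highest endothelial level of its group; the fibroblast level of healthy liver vehicle 2 was 9.91, against 7.29 and 7.22. The part of these cells in the members' values was not tested.

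Fatty liver anti-VEGF 1 and 3 lay at opposite ends of other members. Adm, a vasodilator peptide gene, read 7.39, 8.67 and 9.15 in that group, and P4ha2, a collagen prolyl hydroxylase gene, read 5.83, 6.30 and 7.63. Array 1 was low and array 3 high for both, as for Plod2. By log2 excess over 1 against the mean of the other arrays of the group, array 1 had 2 members above (Lox and Epas1), beside 2.82% of all genes, and 2 below (Adm and P4ha2), beside 0.67%, while array 3 had 3 above (Adm, P4ha2 and Plod2), beside 0.858%, and 0 below, beside 3.55%. The 15 measured T and NK cell genes averaged 5.75 on array 3 and 7.84 to 8.77 on the other fatty liver arrays, and the 14 cell cycle genes 10.13 against 9.13 to 9.65, and the part of either in these values was not tested.

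**Figure D3:**
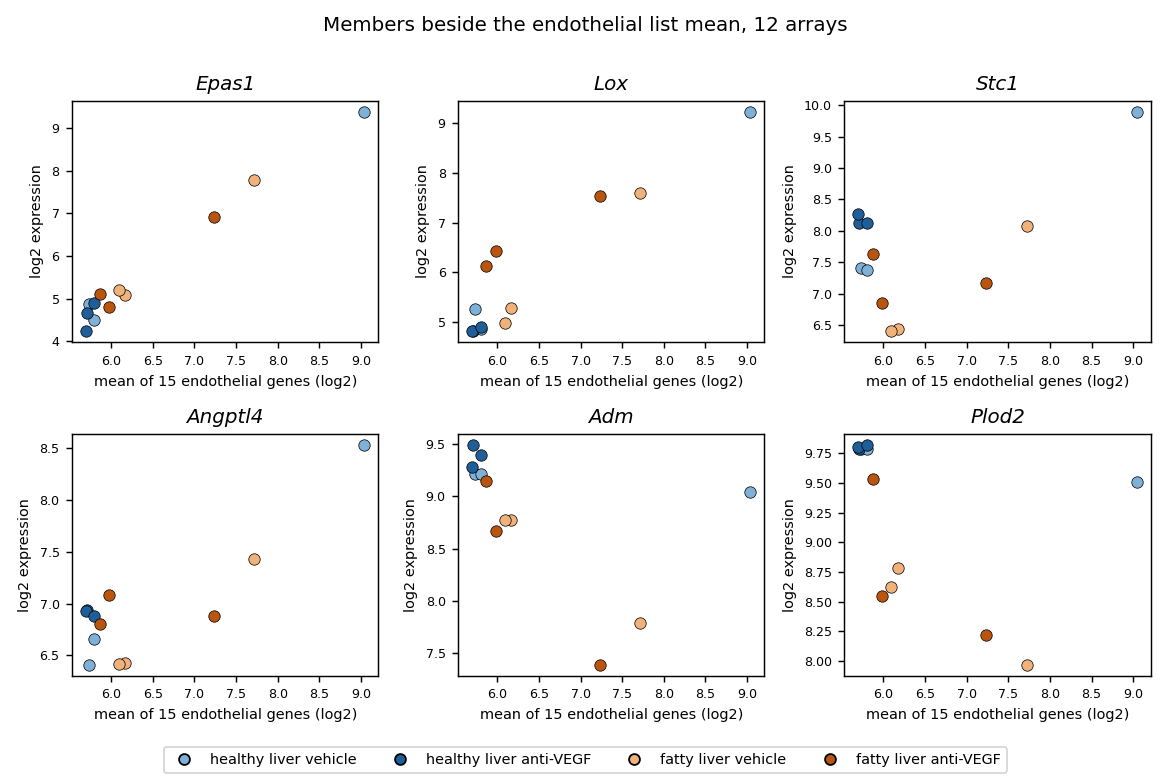
Log2 expression of 6 members on the 12 arrays against the mean log2 level of 15 endothelial genes on the same array, 1 point per array. Epas1, Lox, Stc1 and Angptl4 are highest on healthy liver vehicle 2, the array with the highest endothelial level (9.04), while Adm and Plod2 are not. On fatty liver anti-VEGF 1 (endothelial level 7.23), Epas1 and Lox exceed the mean of the other arrays of the group by 1.95 and 1.27. Stc1 and Angptl4 differ from it there by -0.07 and -0.06.

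The other members had small treatment differences. P4ha1, the other collagen prolyl hydroxylase, read 10.00 to 10.35, and Plod1 read 9.67 to 10.56, with treatment differences of -0.02 to 0.05. The histone demethylase genes Kdm3a (8.63 to 9.24) and Kdm4b (8.03 to 9.07), both induced by hypoxia, had treatment differences of -0.03 to 0.04. Between livers the differences under vehicle were -0.51 ± 0.23 for Kdm4b, -0.37 ± 0.16 for Plod1, -0.26 ± 0.13 for Kdm3a and -0.06 ± 0.09 for P4ha1. Under anti-VEGF they were -0.47, -0.34, -0.32 and -0.07 in the same order. None of these 4 passed the test in the 5 comparisons.

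Between livers, members moved in both directions, within a shift that took in a similar or larger share of all genes. Under vehicle 3 of 29 members rose in fatty liver (10.3%; Ddit4, Egln2 and Stc2), beside 19.2% of all genes, and 5 fell (17.2%; Ak4, Egln3, Hif1a, Ndrg2 and Plod2), beside 30.4%. Under anti-VEGF 2 rose (6.9%; Ddit4 and Egln2), beside 18.2%, and 8 fell (27.6%; Ak4, Egln1, Egln3, Hif1a, Mxi1, Ndrg1, Ndrg2 and Plod2), beside 27.6%. Called in either direction, the shares of all genes were 49.6% and 45.8%, and the count of members called stands above its background in neither comparison. The members' median difference was -0.27 under vehicle and -0.26 under anti-VEGF, beside -0.12 and -0.13 over all genes, and 8 and 6 of 29 were positive. By rank, the groups of the 2 livers did not overlap for 4 members higher and 11 lower under vehicle (23.6% and 37.2% of all genes), and for 3 higher and 13 lower under anti-VEGF (21.9% and 36.6%). The T and NK cell mean was 5.19 to 5.92 on healthy and 5.75 to 8.77 on fatty liver arrays and the cell cycle mean 9.95 to 10.18 and 9.13 to 10.13, and like the macrophage level given above their part in these differences was not tested.

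Vehicle and anti-VEGF comparisons between livers share no array, though they share the fit's estimate of each gene's spread. Of the members that rose, Ddit4 and Egln2 were called in both, 2 of the 3 under vehicle and 2 of the 2 under anti-VEGF. Of those that fell, Ndrg2, Egln3, Plod2, Ak4 and Hif1a were called in both, 5 of 5 and 5 of 8. Over all genes, 81.8% of those higher under vehicle and 86.5% of those higher under anti-VEGF were higher in both, and 71.8% and 79.1% of those lower were lower in both, so an overlap of calls was general and is no result about the members. Ndrg2 had the smallest adjusted p in each, with differences of -0.80 ± 0.14 (adjusted p = 0.00136) and -1.46 ± 0.14 (adjusted p = 4.53e-05).

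These calls rest on counting every array as a mouse of its own. With near-identical arrays averaged, 0 members rose and 0 fell under vehicle, and 0 rose and 1 fell (Ndrg2) under anti-VEGF, while the calls over all genes dropped to 721 and 510; at an unadjusted p under 0.05 it gave 2 members higher and 3 lower under vehicle (32.8% of all genes) and 0 higher and 1 lower under anti-VEGF (22.1%). Ndrg2's difference under vehicle was then -0.85 ± 0.21 (adjusted p = 0.0657) and Plod2's -1.31 ± 0.45 (adjusted p = 0.11). Same-numbered vehicle arrays of the 2 livers deviated together, and a block for the number in the 6 vehicle arrays alone called 2 higher, without Ddit4, and 12 lower; a block over all 12 arrays left the same 3 and 5 members. Ndrg2, Egln2, Egln3 and Plod2 kept their vehicle call whichever single array was left out. A near-identical array left out still has its near copy in the fit, so these fits do not address whether the arrays are separate mice. The 5 lower became 3 without healthy liver vehicle 1 or fatty liver vehicle 3, 8 without healthy liver vehicle 2, 9 without fatty liver anti-VEGF 1 and 10 without fatty liver anti-VEGF 3, and the 3 higher became 1 without healthy liver vehicle 1 or fatty liver vehicle 2. Ddit4 lost it without healthy liver vehicle 1 or 2 or fatty liver vehicle 2, Stc2 without healthy liver vehicle 1 or 3 or fatty liver vehicle 2, and Hif1a without healthy liver vehicle 1 or fatty liver vehicle 1 or 3. Ak4 kept it in 5 of 12 such fits, losing it without 7 arrays: healthy liver vehicle 1 or 3, fatty liver vehicle 2 or 3, or any of the 3 from healthy liver under anti-VEGF.

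Under anti-VEGF, Ndrg2, Egln1 and Egln3 kept their call whichever array was left out, though near copies of each healthy liver anti-VEGF array stayed in the fit. The 8 lower became 14 without fatty liver anti-VEGF 3, 5 without healthy liver anti-VEGF 2, and 4 without healthy liver anti-VEGF 1 or 3 or fatty liver anti-VEGF 1, and the 2 higher became 0 without healthy liver anti-VEGF 2 and 1 without healthy liver or fatty liver anti-VEGF 1. Egln2 lost it without healthy liver anti-VEGF 2, Hif1a without healthy liver anti-VEGF 1 or fatty liver anti-VEGF 2, and Ddit4 without healthy liver anti-VEGF 1 or 2 or fatty liver anti-VEGF 1. Plod2 lost it without healthy liver anti-VEGF 2 or 3 or fatty liver anti-VEGF 1 or 2, and Ndrg1 without fatty liver anti-VEGF 1 or any of the 3 treated arrays of healthy liver. Ak4 lost it without fatty liver anti-VEGF 1 or 2 or any of those 3, keeping it in 7 of 12 fits, and Mxi1 kept it in 4 of 12, losing it without healthy liver vehicle 1 or 3, fatty liver vehicle 1, fatty liver anti-VEGF 1 or 3, or any of those 3.

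**Figure D4:**
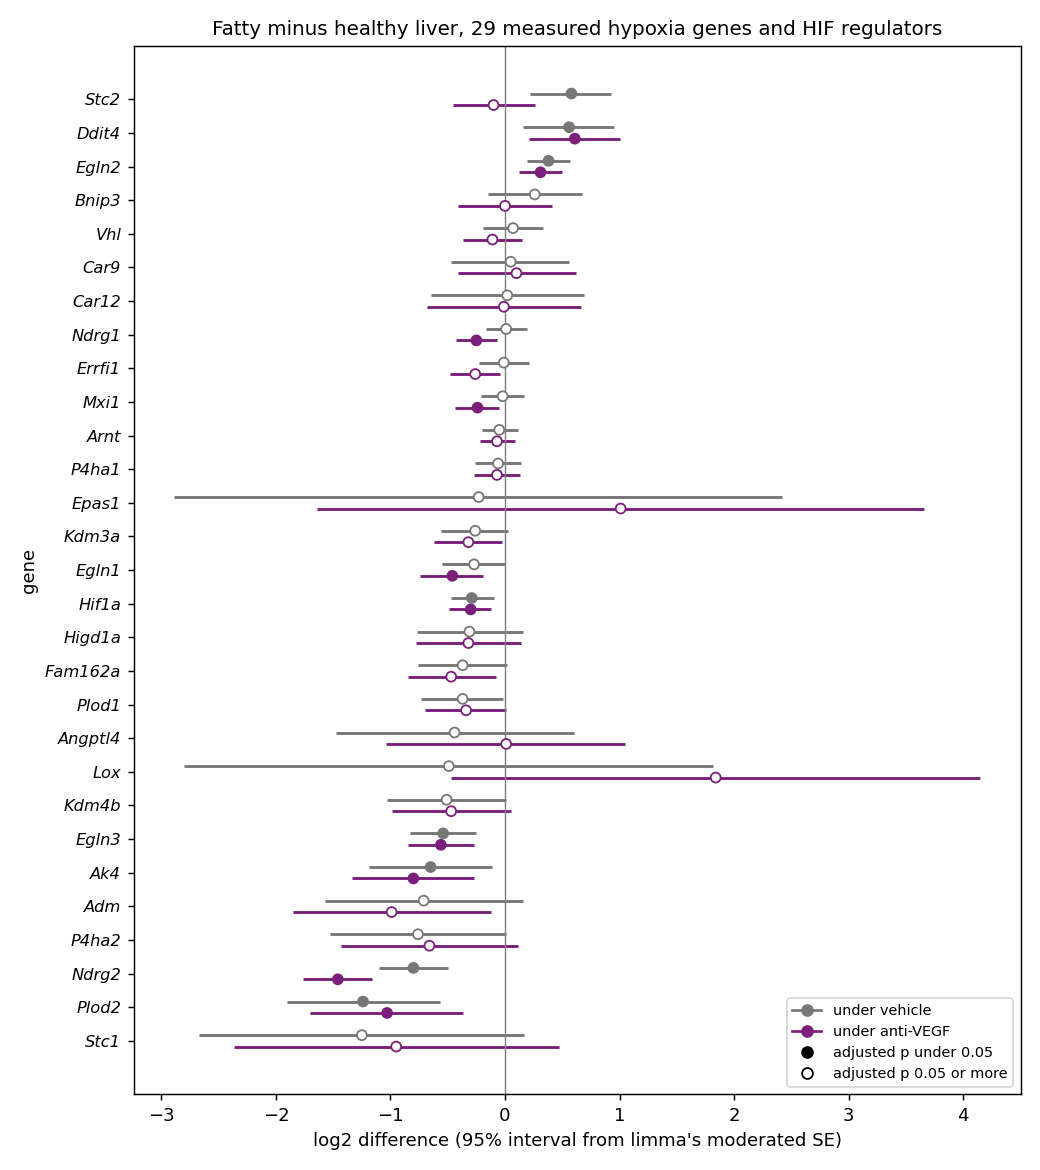
Log2 difference of fatty against healthy liver for each of the 29 measured members, under vehicle and under anti-VEGF, with 95% intervals from the limma fit over 12 arrays; filled points passed the adjusted threshold of 0.05. Ndrg2 and Plod2 lie farthest left among the filled points, and Ddit4 and Egln2 are filled on the right under both treatments.

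The rest of the pathway gave no treatment call either. Of the glycolysis and glucose transport targets, 20 of 24 were measured and 0 were called in either liver, with median differences of 0.08 and 0.03. Slc2a1, the glucose transporter, differed by 0.10 ± 0.10 and 0.07 ± 0.10, Pgk1 by 0.19 ± 0.09 and -0.02 ± 0.09, Ldha by 0.01 ± 0.13 and 0.16 ± 0.13, and Pdk1, the kinase that closes entry to the citrate cycle, by 0.21 ± 0.15 and -0.08 ± 0.15, in healthy and then fatty liver. Targets of vessels, iron and matrix had 13 of 17 measured and 0 called, with medians of -0.56 and -0.26, and Vegfa, which encodes VEGF-A, differed by 0.09 ± 0.12 and -0.15 ± 0.12. Healthy liver vehicle 2 stood at 9.23 in this list's mean, against 7.30 and 7.31 on the other arrays of its group. Other hypoxia genes (23 of 27 measured) and the HIF machinery (14 of 18) also had 0 called, with medians of 0.01 and -0.10 and of 0.03 and -0.03. Hilpda, a lipid droplet protein induced by hypoxia, differed by 0.15 ± 0.19 and -0.42 ± 0.19, and Hif1an, the asparaginyl hydroxylase of HIF, by 0.14 ± 0.14 and 0.17 ± 0.14. In these 4 lists, the counts at an unadjusted p under 0.05 were 1, 1, 1 and 0 higher and 0, 0, 2 and 1 lower in healthy liver, in the order given, and 0 higher and 1, 0, 1 and 2 lower in fatty liver.

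Between livers these lists went both ways, beside 19.2% of all genes higher and 30.4% lower under vehicle and 18.2% and 27.6% under anti-VEGF; with near-identical arrays averaged, the calls over all genes fell from 6595 to 721 and from 6084 to 510, and the lists were not counted again. Under vehicle 3 glycolysis genes rose and 3 fell of 20, 4 rose and 2 fell of 13 vessel, iron and matrix genes, 9 rose and 1 fell of 23 other hypoxia genes, and 2 rose and 5 fell of 14 machinery genes. Vegfa rose by 0.43 (adjusted p = 0.0128) and Hilpda by 0.78 (adjusted p = 0.00782), while Hif1an fell by 0.40 (adjusted p = 0.0377). Slc2a1 fell under vehicle as well, reading 12.61, 12.56 and 12.59 in healthy and 12.38, 12.19 and 12.42 in fatty liver. Under anti-VEGF the counts were 3 and 2, 3 and 1, 7 and 6, and 1 and 5; Ldha rose by 0.40 (adjusted p = 0.0327) and Slc2a1 fell by 0.29 (adjusted p = 0.0383).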

How the data were processed

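RNA of 12 tumours was hybridised to single-colour arrays, 3 in each of 4 groups taken from the sample titles. The authors deposited 1 table of values, taken as log2 from their range, and made with Affymetrix Expression Console per the submitters' processing notes. Its version, how values were normalized or centred, and the build were not given in the sources used here. Single symbols of the platform annotation covered 23521 of 41345 rows (1814 had several, 16010 none); 23328 matched RefSeq and 0 symbols changed. A gene with several rows took the one with the highest mean.

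All 12 arrays entered a limma 3.58.1 fit in R 4.3.3 of group means, with 5 contrasts and Benjamini-Hochberg adjustment over 13286 genes; the procedure was tested on simulated data. No detection call was used here, and the number of arrays limits precision. The members and all lists were chosen with earlier results of these data known. Values on every array are given for members called in any comparison, those with the smallest p under anti-VEGF up to 16, and 8 set members; a few further members were picked after seeing their values. Alternatives were other scaling, filters, row choice, fitting options, a replicate block and left-out or averaged arrays.

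Same-numbered vehicle arrays of the 2 livers deviated together from their group means over genes (correlations 0.536, 0.701 and 0.549). In both vehicle groups array 2 stood apart from the near-identical arrays 1 and 3. A deviation of array 2 shared by the livers would by itself give positive values for all 3 numbers. This check therefore cannot tell whether the numbers pair the mice. The other pairs of groups had correlations of -0.486 to 0.472.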

Additional observations from a re-analysis of the deposited data

How the results depend on the processing

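Counts of members that passed limma's test depended on how arrays were weighted. Under anti-VEGF in healthy liver the higher count of 0 became 1 (Ndrg2) with only the groups compared, with a trended robust variance, without the 4 vehicle arrays high in Xist, and without the 3 arrays highest in endothelial genes, and 3 with array weights; it was 0 to 1 with each array left out. The lower count became 1 with array weights and 5 (Angptl4, Car12, Epas1, Lox and Stc1) without the Xist arrays, where healthy liver vehicle 2 alone stands for its group and is assumed to vary like the others. In fatty liver the higher count became 1 with array weights (Ndrg2) and 1 without the endothelial arrays (Lox), and the lower count 3 with array weights, as did the lower interaction count; leaving out single arrays gave 0 throughout. Array weights called 1661, 1848 and 1477 genes in these 3 tests, against 0, 1 and 0, and the fit without the Xist arrays 754, 0 and 19, and that without the endothelial arrays 135, 83 and 15. In healthy liver the other gene counts were 7 with arrays centred, 2 with a stricter filter, 47 with only the groups compared and 9 with a trended robust variance, and 41, 4 and 31 without fatty liver anti-VEGF 1, 2 or 3, and in fatty liver 0 with only the groups compared, the replicate block or arrays averaged.

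For fatty against healthy liver under vehicle, the 3 higher became 0 with near-identical arrays averaged and 0 without the Xist arrays (1 to 3 with an array left out), and the 5 lower became 8 with only the groups compared, 14 with array weights, 0 averaged, 12 with the replicate block in the 6 vehicle arrays, 9 without the endothelial arrays, and 3 to 10 with an array left out. Without the Xist arrays this comparison is 1 array against 1, array 2 of each liver, with the spread taken from the other groups; its 3 lower (Angptl4, Ndrg2 and Stc1) share 1 with the 5. The Xist fit called 1057 genes and the averaged fit 721, of 6595. Under anti-VEGF the 2 higher became 4 with array weights, 0 averaged and 5 without the endothelial arrays (0 to 3 with an array left out), and the 8 lower became 5 with the mean of all rows, 18 with array weights and 1 averaged (4 to 14), beside 9884 and 510 genes of 6084. Hif1a under vehicle reversed to 0.02 with the mean of its rows. Bnip3 under anti-VEGF, 0.999-fold in the main fit, differed by 0.21 with array weights and 0.22 without the endothelial arrays. The replicate block over 12 arrays changed no other count of members beyond 1.5 times. The block in the vehicle arrays and the fits without the endothelial arrays were chosen after seeing the data, and the causes of these changes were not tested. Differences that passed in neither fit were compared by size alone; 34 of 679 such values changed sign in healthy and 63 of 689 in fatty liver.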
